A study of Danio rerio with 12 samples.

Results

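The small heat shock protein genes, with the alpha-B crystallins, were examined in white skeletal muscle of zebrafish. Members were chosen by name: a gene belonged if its symbol began with cryab, or with hspb and a digit. Of 31962 genes listed, 12 met this rule, namely hspb1, hspb2, hspb3, hspb6, hspb7, hspb8, hspb9, hspb15, cryaba, cryabb and a pair of entries that share the symbol hspb11. No level entered this rule, but the family was selected on differences between Gr mutants and wild-type fish that were already known in these libraries, so its p-values describe these libraries and are no independent evidence for the family.

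RNA was sequenced from 12 libraries in 4 groups of 3: exercised Gr mutants, exercised wild-type fish, non-exercised Gr mutants and non-exercised wild-type fish. The mutants (genotype --) carry s357, a point mutation of nr3c1 that alters the DNA-binding domain of the glucocorticoid receptor Gr, and the wild-type fish (++) were 3 months old when supplied; the age of the mutants and the relation of both stocks are not given in the sources used here. Exercised fish swam at 0.4 m/s, their optimal speed, for 6 h on 5 days a week over 4 weeks, while non-exercised fish stayed at a flow of 0.1 m/s. The methods give 1 swim tunnel for each exercise regimen, with fish of both genotypes in it, so tunnel and exercise cannot be told apart.

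Small heat shock proteins are chaperones built around a shared alpha-crystallin domain. They bind unfolding proteins without using ATP and hold them for refolding by larger chaperones or for removal. In striated muscle they are known for association with actin, desmin, titin and filamin, and several are abundant there in mammals. Gr is a transcription factor that cortisol activates.

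Reads counted on genes ranged from 7688323 to 13894240 per library, and the 10 genes with the highest counts held 31.1 to 46.1% of them. White muscle genes such as those of fast myosin light chains and parvalbumins summed to 184927 to 404762 CPM in every library. CPM are reads of a gene after scaling each library to one common size. The 10 eye lens markers summed to 0.297 to 2.32 CPM, and of them only cryaa was at 0 in all 12 libraries. Non-exercised Gr mutant replicate 3 stood apart from its group on the first principal component (5.58 against 56.2 and 57.5). Exercised wild-type replicate 3 also stood apart from its group there (-0.12 against -36.1 and -62.6). Without non-exercised Gr mutant replicate 3, 544 genes passed the threshold between non-exercised Gr mutants and wild-type fish, against 35 with it. The transcript of nr3c1 averaged 56.5 CPM in exercised Gr mutants, 52.4 CPM in exercised wild-type fish, 44.2 CPM in non-exercised Gr mutants and 35.8 CPM in non-exercised wild-type fish. It passed the threshold in no comparison, and as the mutation is a point mutation its level does not check the labels.

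The main difference lay in hspb6, the gene of Hsp20, a muscle chaperone that in mammals is phosphorylated by cyclic nucleotide-dependent kinases and is linked to smooth muscle relaxation and protection of the heart. It was 76.4-fold lower in exercised Gr mutants than in exercised wild-type fish, and 27.0-fold lower in non-exercised Gr mutants than in non-exercised wild-type fish. No other member passed the threshold in any comparison. With bulk muscle, fewer cells that express a gene and less RNA per cell cannot be told apart.

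Levels of hspb6 (ENSDARG00000077236) in exercised Gr mutants were 8.91, 7.16 and 6.31 CPM in replicates 1, 2 and 3, against 558, 959 and 226 CPM in exercised wild-type fish. In the non-exercised state they were 57.8, 47.6 and 23.6 CPM in Gr mutants, against 613, 1032 and 1882 CPM in wild-type fish. All 6 mutant libraries therefore lay below all 6 wild-type libraries, with the highest mutant value at 57.8 CPM and the lowest wild-type value at 226 CPM. The mutant values rest on 45 to 108 reads in exercised fish and on 253 to 975 reads in non-exercised fish, while wild-type libraries held 3006 to 31044. Group means were 7.46 ± 1.32, 581 ± 367, 43.0 ± 17.5 and 1175 ± 647 CPM (SD, n = 3 each) in exercised Gr mutants, exercised wild-type fish, non-exercised Gr mutants and non-exercised wild-type fish.

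**Figure D1:**
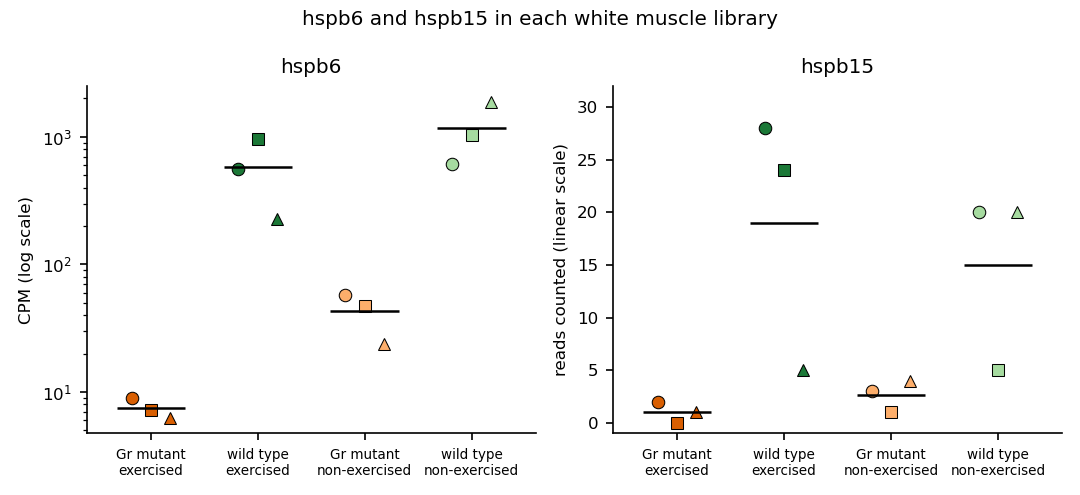
Each point is 1 library (circle, square and triangle for replicates 1, 2 and 3) and each bar a group mean; the left panel gives hspb6 in CPM on a log axis and the right panel gives reads of hspb15 on a linear axis. For hspb6 the 6 Gr mutant libraries sit between 6.31 and 57.8 CPM, all under the 6 wild-type libraries at 226 to 1882 CPM; for hspb15 no Gr mutant library held more than 4 reads.

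Between exercised Gr mutants and exercised wild-type fish the log2 fold change of hspb6 was -6.26 (SE 0.55, 95% interval -7.52 to -5.00, adjusted p = 0.00365 in the quasi-likelihood fit of edgeR, Benjamini-Hochberg adjusted over all genes tested). Of 14106 genes tested, 3.02% passed in this comparison, and 1 of the 9 members tested did. By size hspb6 was the 4th most negative of the 5429 tested genes that averaged at least 100 counts. The call was lost without exercised Gr mutant replicate 2 (log2 fold change -6.21, adjusted p = 0.0582 in edgeR). Over the libraries left out in turn the log2 fold change stayed between -6.63 and -5.71.

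In non-exercised fish the log2 fold change of hspb6 between Gr mutants and wild-type fish was -4.75 (SE 0.57, 95% interval -6.07 to -3.44, adjusted p = 0.0255 in edgeR, tested and adjusted as before). Here 0.233% of 15011 genes tested passed, and again 1 of the 9 members tested did. The gene was the 5th most negative of 5433 with an average of at least 100 counts. Its call was lost without non-exercised wild-type replicate 2 (-4.84, adjusted p = 0.113 in edgeR), without non-exercised wild-type replicate 3 (-4.24, adjusted p = 0.0827) and without non-exercised Gr mutant replicate 2 (-4.81, adjusted p = 0.185). Without non-exercised Gr mutant replicate 3, which stood apart from its group, the log2 fold change was -4.48 (adjusted p = 0.0194 in edgeR).

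Markers of white blood cells differed in the same comparison. All 9 leukocyte markers tested had a positive log2 fold change and an unadjusted p under 0.05 in edgeR, with none past the adjusted threshold. Of all genes tested there, 17.2% had an unadjusted p under 0.05. The sum of all 10 listed leukocyte markers was 1706, 1553 and 276 CPM in non-exercised Gr mutants, against 294, 159 and 290 CPM in non-exercised wild-type fish. The mutant library with 276 CPM of these markers held 23.6 CPM of hspb6, and the other mutant libraries of that group held 57.8 and 47.6 CPM. In exercised fish, 6 of 8 erythrocyte markers were lower in Gr mutants at an unadjusted p under 0.05 in edgeR, which 19.5% of all genes had. The sum of the 8 was 395, 348 and 340 CPM in exercised Gr mutants, against 581, 3155 and 245 CPM in exercised wild-type fish. The wild-type library with 245 CPM of these markers held 226 CPM of hspb6, and the other wild-type libraries of that group held 558 and 959 CPM. Such a shared lowest library was not seen in every group. In both wild-type groups leukocyte markers were lowest in replicate 2, where hspb6 was not lowest. For erythrocyte markers the same held in both non-exercised groups. In the remaining groups the lowest library was shared with hspb6. Slow and red muscle markers summed to 778 to 1810 CPM in exercised Gr mutants and 765 to 4354 CPM in exercised wild-type fish, which overlap. Of 14 fast muscle markers tested in exercised fish, 9 had a positive log2 fold change between Gr mutants and wild-type fish, with a median of 0.61 over the 14. The sum of all 16 listed was 287696 to 380305 CPM in exercised Gr mutants and 184927 to 308485 CPM in exercised wild-type fish. Past the threshold pvalb1 was higher and atp2a1 and tnni2a.4 were lower in exercised Gr mutants (log2 fold changes 2.54, -1.98 and -1.83). Oocyte markers summed to 248 CPM in exercised Gr mutant replicate 3, against at most 26.3 CPM in any wild-type library. Without that replicate the log2 fold change of hspb6 between the exercised genotypes was -6.14 (adjusted p = 0.0388 in edgeR). Whether cell content bears on the hspb6 levels was not tested.

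Exercise was compared with its absence within each genotype. In Gr mutants hspb6 did not overlap between the states, with 6.31 to 8.91 CPM in exercised and 23.6 to 57.8 CPM in non-exercised fish. The log2 fold change was -2.48 (SE 0.37, 95% interval -3.32 to -1.63), with an unadjusted p of 0.000106 that ranked 6 among 14584 genes and an adjusted p of 0.198 in edgeR, so it did not pass. In this comparison 0.0% of genes passed edgeR's adjusted threshold, while 1537, or 10.5%, had an unadjusted p under 0.05, as did 2 of the 9 members tested (hspb6 and hspb7), and DESeq2 called 84, hspb6 among them (adjusted p = 2.05e-06). Without non-exercised Gr mutant replicate 3 the change was -2.78 and passed in edgeR as well (adjusted p = 0.0185). Cell markers differed in this comparison too, with none past the adjusted threshold. Of 9 leukocyte markers tested 0 had a positive log2 fold change, with a median of -1.72, and 6 had an unadjusted p under 0.05 in edgeR. Of 11 slow and red muscle markers 1 was positive, with a median of -0.76, and 4 had an unadjusted p under 0.05. Whether cell content bears on the levels of hspb6 and hspb7 here was not tested.

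In wild-type fish the hspb6 levels of both states overlapped, at 226 to 959 CPM in exercised and 613 to 1882 CPM in non-exercised fish. The log2 fold change was -1.004 (SE 0.56, 95% interval -2.29 to 0.28, adjusted p = 0.461 in edgeR). The share of genes that passed in this comparison was 0.37%, and 0 of the 10 members tested were among them, with 1 member (hspb8) at an unadjusted p under 0.05, where 13.9% of all genes were, and 0 called by DESeq2. Whether exercise acted differently on hspb6 in the genotypes was tested as an interaction over all 12 libraries. The mutant response minus the wild-type response was -1.46 on the log2 scale (SE 0.74, 95% interval -3.06 to 0.14, adjusted p = 0.626 in edgeR), which did not pass. For the interaction 0.0% of 16056 genes passed, 1347 (8.39%) had an unadjusted p under 0.05, 0 of the 10 members tested among them, and DESeq2 called 28, none of them a member.

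The share of the family's reads that fell on hspb6, which is not corrected for gene length, was computed in each library. It was 1.92, 2.99 and 1.88% in exercised Gr mutants, against 56.1, 64.2 and 24.9% in exercised wild-type fish. In the non-exercised state the share was 15.4, 10.4 and 3.10% in Gr mutants, against 57.1, 70.29 and 84.6% in wild-type fish. The other 11 members together gave 232 to 456 CPM in exercised Gr mutants and 436 to 682 CPM in exercised wild-type fish, and 318 to 736 CPM in non-exercised Gr mutants and 342 to 460 CPM in non-exercised wild-type fish, so these sums overlapped in both states.

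A member with few reads, hspb15, was also lower in every Gr mutant library than in every wild-type library, but by a very narrow margin. Its highest mutant value was 0.373 CPM and its lowest wild-type value 0.377 CPM. For this gene (ENSDARG00000078411) 2, 0 and 1 reads were counted in exercised Gr mutants, against 28, 24 and 5 in exercised wild-type fish. In non-exercised fish 3, 1 and 4 reads were counted in Gr mutants, against 20, 5 and 20 in wild-type fish. The gene was under the filter of 10 counts in 3 libraries in both genotype comparisons and was not tested there. Summed and corrected for library size, 11 mutant reads against 102 wild-type reads give a level 8.66-fold lower in Gr mutants (95% exact conditional interval 4.64 to 17.9, which covers counting error only). In a fit without the filter its log2 fold change was -3.68 in exercised fish (adjusted p = 0.0611) and -2.56 in non-exercised fish (adjusted p = 0.145), neither of which passed in edgeR.

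Other members without hspb6's pattern fall into those that varied together most closely and the rest. The first are hspb8, hspb9 and hspb11 (ENSDARG00000002204). In mammals HSPB8 works with the co-chaperone BAG3 to send damaged proteins, filamin among them, to autophagy, and HSPB9 is known from testis. The hspb11 entry is listed as hspb9l in a current name table; in zebrafish embryos hspb11 is known for expression in muscle that depends on muscle activity.

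Exercised Gr mutants had 89.9, 47.4 and 82.8 CPM of hspb8, against 99.3, 164 and 154 CPM in exercised wild-type fish. In non-exercised fish the same gene was at 31.9, 92.4 and 152 CPM in Gr mutants, against 68.5, 85.1 and 81.8 CPM in wild-type fish. The exercised groups did not overlap, whereas the non-exercised mutants ranged from below to above all wild-type libraries. Its log2 fold change was -0.91 in exercised fish (SE 0.29, adjusted p = 0.130 in edgeR) and 0.23 in non-exercised fish (SE 0.48, adjusted p = 0.851 in edgeR). The 3 exercised wild-type libraries also lay above the 3 non-exercised ones, with a log2 fold change of 0.84 (SE 0.23, 95% interval 0.30 to 1.37, adjusted p = 0.173 in edgeR), the only tested member without overlap in that comparison, where 20.2% of all genes tested had none.

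The values of hspb9 were 4.45, 2.07 and 10.8 CPM in exercised Gr mutants, against 19.2, 52.5 and 19.0 CPM in exercised wild-type fish. Non-exercised Gr mutants had 1.24, 10.9 and 47.6 CPM, against 8.56, 19.9 and 23.0 CPM in non-exercised wild-type fish. Again the exercised groups were apart and the non-exercised mutants spanned the wild-type values, here over a 38.3-fold range of CPM within 1 group. Reads in that group were 21, 184 and 511, a narrower range than that of the CPM. The log2 fold change in exercised fish was -2.34 (SE 0.60, 95% interval -3.70 to -0.98, adjusted p = 0.0738 in edgeR). It passed with DESeq2 (adjusted p = 0.000896) and in edgeR without the filter (adjusted p = 0.0444).

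For hspb11, exercised Gr mutants had 52.0, 35.3 and 84.9 CPM, against 97.8, 104 and 148 CPM in exercised wild-type fish. Values in the non-exercised state were 40.3, 90.5 and 186 CPM in Gr mutants, against 103, 109 and 72.5 CPM in wild-type fish. As for the 2 genes before, exercised mutants lay under all exercised wild-type libraries and non-exercised mutants on both sides of the wild-type ones. The log2 fold changes were -1.004 in exercised fish (SE 0.34, adjusted p = 0.152 in edgeR) and 0.16 in non-exercised fish (SE 0.50, adjusted p = 0.907 in edgeR).

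**Figure D2:**
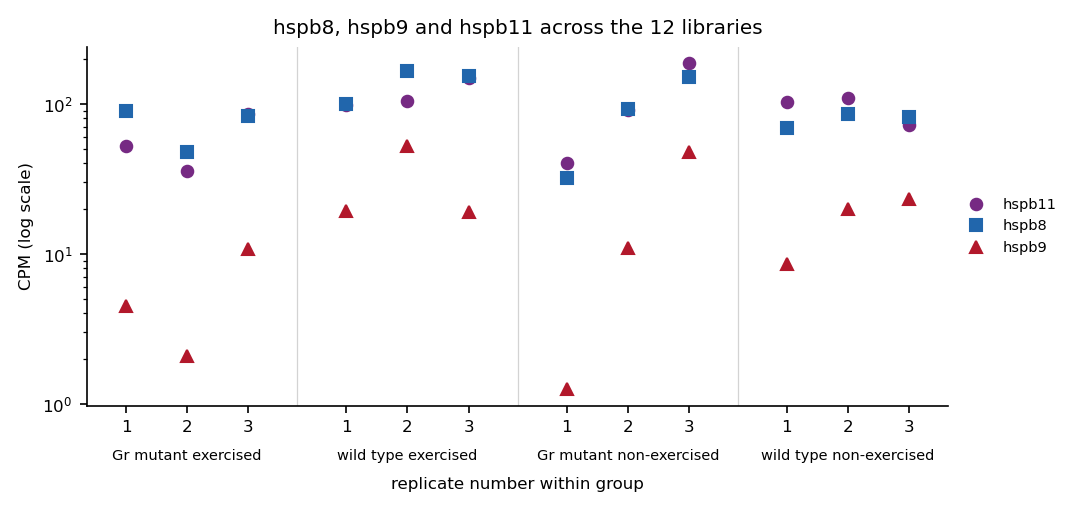
CPM on a log axis of hspb11 (circles), hspb8 (squares) and hspb9 (triangles) in each library, by group and replicate number. In non-exercised Gr mutants all 3 genes are lowest in replicate 1 and highest in replicate 3, from 1.24 to 47.6 CPM for hspb9.

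With the group means removed, log2 CPM of these genes correlated at r = 0.92 for hspb8 with hspb9, 0.86 for hspb8 with hspb11 and 0.81 for hspb9 with hspb11 over the 12 libraries. These were the 3 highest of the 28 pairs among the 8 members that averaged at least 100 counts, and they are a description, since all genes of a library share its depth and composition. The next highest pairs were those of hspb2, at r = 0.64 with hspb9, 0.62 with hspb11 and 0.59 with hspb8. In non-exercised Gr mutants replicate 1 was the lowest and replicate 3 the highest for hspb8, hspb9 and hspb11. The same order held there in CPM for hspb2 and cryabb, over narrower ranges, but not in their reads. Those were 220, 253 and 181 for hspb2 and 43, 56 and 45 for cryabb, of 12126957, 13881344 and 13894240 reads on genes. The scaling factors of these libraries were 1.39, 1.21 and 0.772, so the order of hspb2 and cryabb depends on the scaling. Without replicate 3 of that group the log2 fold changes between non-exercised Gr mutants and wild-type fish had the other sign, -0.36 for hspb8, -1.52 for hspb9 and -0.56 for hspb11 (adjusted p = 0.694, 0.338 and 0.473 in edgeR), so no direction is given for them there. The interaction of genotype and exercise was -1.10 for hspb8, -2.52 for hspb9 and -1.12 for hspb11 (SE 0.62, 1.32 and 0.67), and none passed (adjusted p = 0.674, 0.643 and 0.689 in edgeR).

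A member that lay the other way in exercised fish, without passing the threshold, was hspb2. In mammals its product is made mainly in muscle and forms a complex with HSPB3. Its level was 18.2, 18.8 and 23.3 CPM in exercised Gr mutants, against 9.13, 13.9 and 10.8 CPM in exercised wild-type fish. Non-exercised fish had 13.0, 15.0 and 16.9 CPM in Gr mutants, against 13.3, 13.4 and 11.2 CPM in wild-type fish. In CPM exercised mutants lay above all other libraries of the series, but the log2 fold change against exercised wild-type fish, 0.85 (SE 0.22, 95% interval 0.36 to 1.35), had an adjusted p of 0.0735 in edgeR. Against non-exercised mutants it was 0.49 (SE 0.24, adjusted p = 0.511 in edgeR), without overlap in CPM, and 0.12 to 0.58 over the alternative fits. That gap between the mutant states depends on the scaling, and by library totals they overlapped. Exercised mutant replicate 2 held 118 reads of hspb2 among 7688323, and non-exercised mutant replicate 1 held 220 among 12126957. For hspb3 the partner values were 8.15 to 14.8 CPM in exercised Gr mutants and 7.17 to 13.4 CPM in exercised wild-type fish, and 5.58 to 11.4 CPM in non-exercised Gr mutants and 10.4 to 12.5 CPM in non-exercised wild-type fish. These ranges overlapped in both states.

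The gene hspb1 encodes Hsp27, which in mammals binds actin and is phosphorylated under stress. Its levels were 263, 110 and 114 CPM in exercised Gr mutants, against 179, 177 and 327 CPM in exercised wild-type fish. They were 207, 173 and 310 CPM in non-exercised Gr mutants, against 234, 169 and 127 CPM in non-exercised wild-type fish. Groups overlapped in every comparison, with log2 fold changes of -0.49 (95% interval -1.39 to 0.40) in exercised and 0.39 (95% interval -0.40 to 1.19) in non-exercised fish between the genotypes. The intervals leave room for changes of either sign.

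In mammals the product of hspb7 is a heart and muscle chaperone that binds filamin C. Exercised Gr mutants had 7.26, 5.73 and 2.76 CPM, against 19.8, 2.57 and 10.1 CPM in exercised wild-type fish. Non-exercised Gr mutants had 12.03, 20.1 and 6.90 CPM, against 17.2, 22.6 and 9.15 CPM in non-exercised wild-type fish. The exercised wild-type libraries alone spanned a 7.72-fold range, and the genotypes overlapped in both states. Between exercised and non-exercised Gr mutants the log2 fold change was -1.26 (SE 0.46, unadjusted p = 0.0225, adjusted p = 0.444 in edgeR).

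**Figure D3:**
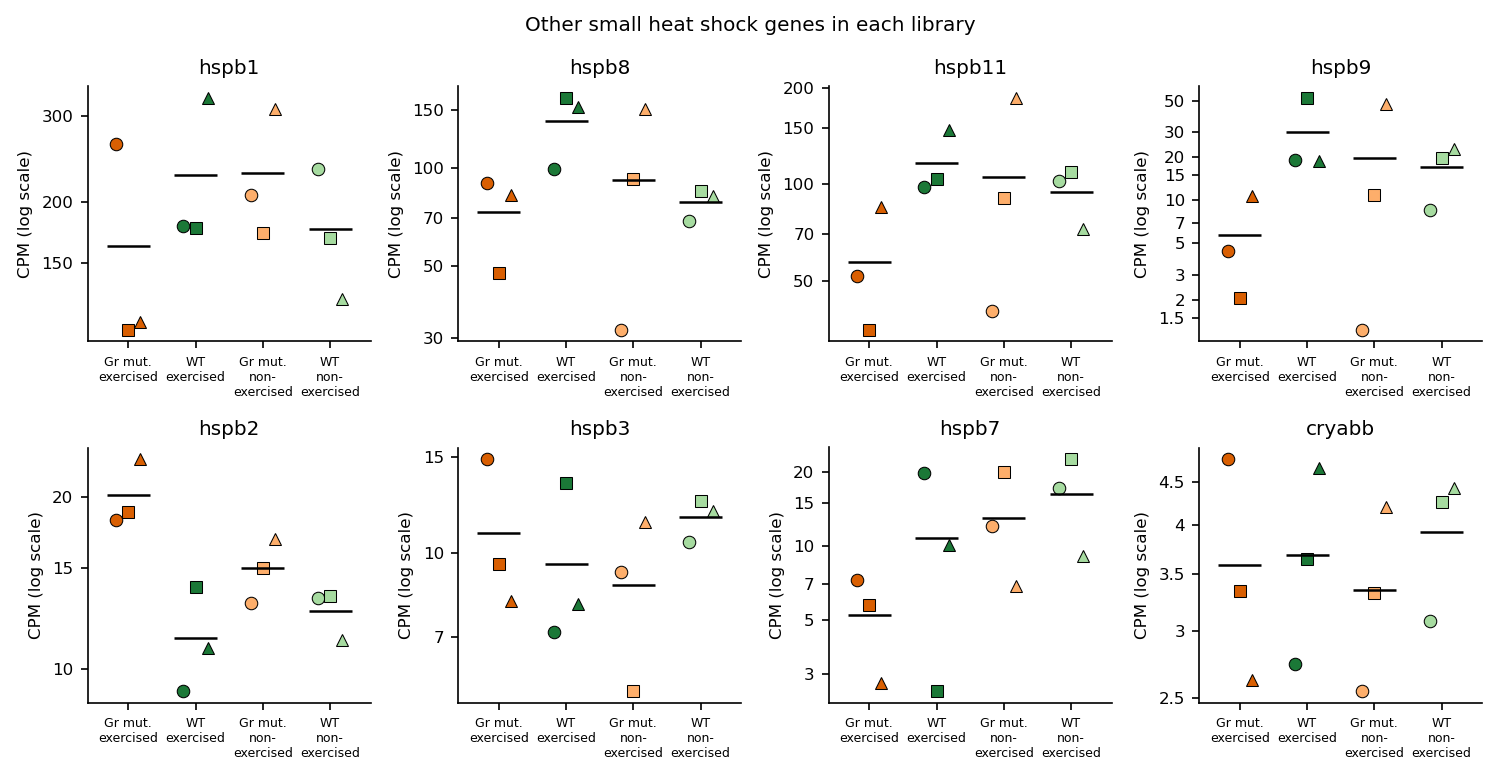
CPM on log axes of 8 members besides hspb6 in each library (points; circle, square and triangle for replicates 1, 2 and 3) with group means (bars); Gr mut. is Gr mutant and WT wild type. Exercised Gr mutants lie apart from exercised wild-type fish for hspb8, hspb9 and hspb11 (lower) and hspb2 (higher), while hspb1, hspb3, hspb7 and cryabb overlap. Of all genes tested there, 24.6% had no overlap, and the adjusted p of the members that lie apart was 0.0735 to 0.152 in edgeR.

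The alpha-B crystallins are chaperones of the eye lens and, in mammals, of striated muscle, where they bind desmin; zebrafish have 2 genes, of which cryaba is known as the lens form. Reads of cryabb numbered 20 to 73 per library, at 2.63 to 4.78 CPM in exercised Gr mutants and 2.74 to 4.67 CPM in exercised wild-type fish, and 2.55 to 4.20 CPM in non-exercised Gr mutants and 3.08 to 4.43 CPM in non-exercised wild-type fish. All 4 ranges overlapped, and its highest level was 1.88-fold its lowest, the narrowest of the 10 members with a read in every library. Its log2 fold change was -0.02 in exercised fish (95% interval -0.73 to 0.69) and -0.22 in non-exercised fish (95% interval -0.90 to 0.45) between the genotypes. For cryaba 1 read was counted in all 12 libraries, in a non-exercised Gr mutant, and each library at 0 allows up to 3 counts.

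The remaining entry, HSPB11 (ENSDARG00000067777), corresponds to a human gene whose product is known as an intraflagellar transport protein of cilia and not as a chaperone. It had 2 to 12 reads per library, with 38 in Gr mutants and 29 in wild-type fish in all. Corrected for library size, the mutant level was 1.40 times the wild-type level (95% exact conditional interval 0.84 to 2.36), a difference not detectable at this depth. The gene was under the filter in all comparisons, and in fits without it the log2 fold change of HSPB11 was 0.62 in exercised fish (adjusted p = 0.729 in edgeR) and 0.32 in non-exercised fish (adjusted p = 0.857 in edgeR) between the genotypes. In a current annotation hspb6 overlaps proser3, hspb2 overlaps cryabb, and hspb3 overlaps arl15a. As the strand setting of the counting is not given in the sources used here, reads from overlapping genes cannot be told apart; proser3 was at 1.03 to 2.55 CPM in Gr mutants and 1.03 to 2.27 CPM in wild-type fish.

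Set against all genes tested, the members as a family did not move in one direction across the comparisons. In exercised fish 2 of 9 members had a positive and 7 a negative log2 fold change between Gr mutants and wild-type fish, with a median of -0.91 against -0.01 over all genes. Groups did not overlap for 5 of those 9 (hspb2, hspb6, hspb8, hspb9 and hspb11), where 24.6% of all genes tested had no overlap, and the same 5 had an unadjusted p under 0.05 in edgeR, as 19.5% of all genes did. In non-exercised fish 5 were positive and 4 negative, with a median of 0.16 against 0.05, and only hspb6 of the 9 did not overlap, where the share of all genes was 21.9%, and hspb6 alone had an unadjusted p under 0.05, as 17.2% of all genes did. Exercise gave 3 positive and 6 negative values in Gr mutants, with a median of -0.46 against -0.02. There was no overlap in CPM for hspb2 and hspb6, where 15.9% of all genes had none. In wild-type fish it gave 5 positive and 5 negative values, with a median of 0.12 against 0.03.

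**Figure D4:**
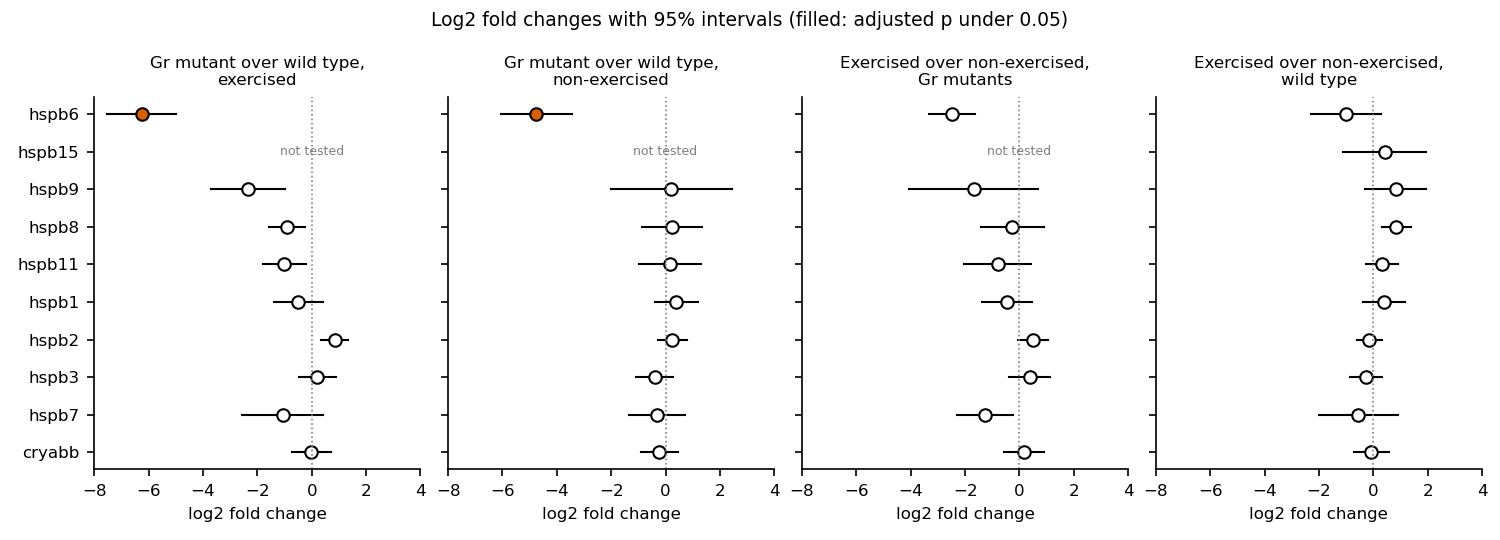
Log2 fold changes (points) with 95% intervals (lines) of 10 members in 4 comparisons; filled points passed the adjusted threshold of 0.05 in edgeR. Only hspb6 is filled, at -6.26 in exercised and -4.75 in non-exercised fish between Gr mutants and wild type; hspb15 was tested in the wild-type exercise comparison alone.

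Genes of the wider heat shock response were read from the same fits, to place the small heat shock genes among the larger chaperones and their regulators. Of 36 tested, 2 were lower in exercised Gr mutants than in exercised wild-type fish and 0 passed in the other comparisons. Over all genes, 3.02% passed between the exercised genotypes, so the count of this list is near the background. The first, hspa9, encodes the mitochondrial Hsp70 and had 53.0, 36.6 and 33.0 CPM in exercised Gr mutants, against 103, 110 and 98.0 CPM in exercised wild-type fish (log2 fold change -1.34, adjusted p = 0.0225 in edgeR). The other, hspa4a, encodes an Hsp110-type chaperone and had a log2 fold change of -1.24 (adjusted p = 0.0310 in edgeR). The median of the list there was -0.09, and hsf1, the main heat shock transcription factor, had a log2 fold change of -0.31 (adjusted p = 0.418 in edgeR). Levels of hsf1 were 7.80 to 10.1 CPM in exercised Gr mutants and 10.7 to 12.6 CPM in exercised wild-type fish. They were 8.23 to 11.2 CPM in non-exercised Gr mutants and 13.4 to 16.5 CPM in non-exercised wild-type fish. The genotypes thus did not overlap in either state, where 24.6 and 21.9% of all genes had no overlap. Nor did the wild-type states, where the share was 20.2%. In the other comparisons the median of the list was -0.26 between the non-exercised genotypes, -0.43 for exercise in Gr mutants and -0.27 for exercise in wild-type fish. For exercise in wild-type fish 10 of the 36 had an unadjusted p under 0.05 in edgeR, as 13.9% of all genes did. There 8 of the 36 had a positive log2 fold change. Means of hsp70l, hsp70.1, hsp70.2 and hsp70.3 were 3.82, 2.62, 4.27 and 2.60 CPM in exercised wild-type fish. In non-exercised wild-type fish they were 44.6, 22.1, 30.8 and 25.1 CPM, without overlap, though hsp70l alone ranged there from 12.2 to 80.1 CPM. None of these genes passed the threshold. In Gr mutants each of them overlapped between the states, with hsp70l at 4.14 to 6.44 CPM in exercised and 4.62 to 39.4 CPM in non-exercised fish.

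Partners and clients of small heat shock proteins gave 1 call among 30 tested genes, in exercised Gr mutants against exercised wild-type fish, about the 3.02% of all genes that passed there. It was flnca, a filamin C gene whose product crosslinks actin at the Z-disc and in mammals is a client of HSPB8 with BAG3. Its level was 102, 79.9 and 55.5 CPM in exercised Gr mutants, against 569, 537 and 334 CPM in exercised wild-type fish, a log2 fold change of -2.60 (adjusted p = 0.0106 in edgeR). In the same fish bag3 was at 32.8, 27.2 and 30.0 CPM in Gr mutants, against 60.1, 61.6 and 26.4 CPM in wild-type fish, which overlapped (log2 fold change -0.71, adjusted p = 0.264 in edgeR). No gene of the list passed in the other 3 comparisons, and its median was within 0.09 of 0 on the log2 scale in all 4.

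Genes known to respond to glucocorticoids were read in the same way, as the genotypes differ in the receptor. In exercised fish, where 3.02% of all genes passed, 7 of 26 were lower in Gr mutants, namely cebpd, fkbp5, glula, klf9, pdk4, pfkfb4b and tsc22d3, and in non-exercised fish, where 0.233% passed, 2 of 26 were, fkbp5 and pdk4. None was higher in Gr mutants past the threshold. The clock genes per1a and per1b were lower in exercised than in non-exercised wild-type fish, where 0.37% of all genes passed, and 0 of 25 passed for exercise in Gr mutants. The median of the list was -1.61 in exercised and -1.86 in non-exercised fish between the genotypes, against -0.01 and 0.05 over all genes.

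The genes whose log2 CPM followed hspb6 most closely over the 12 libraries, out of 5433 with an average of at least 100 counts, were desi1a (r = 0.96), fkbp5 (r = 0.95) and C5H8orf4 (2 of 2) (r = 0.95). These values describe a pattern that the gap between the genotypes sets in large part, and libraries of a group share their treatment. The product of fkbp5 is a co-chaperone of Hsp90 in steroid receptor complexes and its gene is a common readout of glucocorticoid action.

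In exercised Gr mutants fkbp5 was at 1.24, 0.637 and 0.526 CPM, against 480, 770 and 35.6 CPM in exercised wild-type fish. Non-exercised Gr mutants had 1.01, 1.66 and 1.21 CPM, against 83.5, 451 and 579 CPM in non-exercised wild-type fish. In both wild-type groups the lowest and the highest library for fkbp5 were the same as for hspb6: replicates 3 and 2 in exercised fish, and replicates 1 and 3 in non-exercised fish. This did not hold for the other genes of the set: desi1a was highest in replicate 2 of the non-exercised wild-type fish, and C5H8orf4 (2 of 2) was highest in replicate 1 of the exercised and lowest in replicate 2 of the non-exercised wild-type fish. As fkbp5 was picked for its correlation over these libraries, a shared order is partly built in. Of the other glucocorticoid genes called in exercised fish, pdk4 and pfkfb4b had the same lowest and highest libraries. Those of cebpd, glula, klf9 and tsc22d3 differed in at least 1 wild-type group. The share of all genes with the same order is not given here, so these matches are a description. Both fkbp5 and desi1a passed the threshold between the genotypes in exercised fish (log2 fold changes -8.95 and -5.18, adjusted p = 0.0139 and 0.0267 in edgeR) and in non-exercised fish (-8.14 and -3.63, adjusted p = 0.0189 for each). Where hspb6 was lower in exercised than in non-exercised Gr mutants without overlap, fkbp5 overlapped (log2 fold change -0.59, adjusted p = 0.673 in edgeR).

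**Figure D5:**
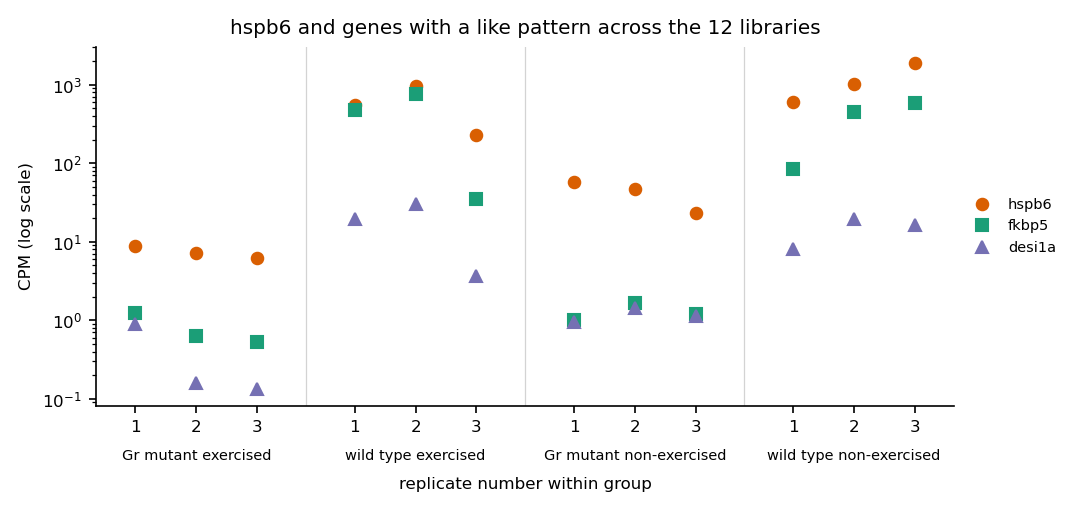
CPM on a log axis of hspb6 (circles), fkbp5 (squares) and desi1a (triangles) in each library, by group and replicate number. All 3 genes are lower in every Gr mutant library than in every wild-type library, and exercised wild-type replicate 3 is the lowest wild-type library for each, at 226 CPM for hspb6 and 35.6 CPM for fkbp5.

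For the members that varied together, rtca, the gene of an RNA 3′-phosphate cyclase, was among the 3 closest genes each time, at r = 0.96 with hspb9, 0.94 with hspb8 and 0.90 with hspb11. Group means were not removed for these values. In that measure r was 0.89 for hspb8 with hspb9, 0.82 for hspb8 with hspb11 and 0.86 for hspb9 with hspb11. The closest to hspb11 was slc4a7 (r = 0.91), followed by mapkapk2a (r = 0.90), whose mammalian counterpart is the kinase of HSPB1. Close to hspb8 were also strn3 (r = 0.92) and furinb (r = 0.91). Close to hspb9 were also hk2 (r = 0.95), a hexokinase, and mief2 (r = 0.92). The closest to hspb2 were pak7 (r = 0.94), ryr3 (r = 0.93), a calcium release channel of the sarcoplasmic reticulum, and prr33 (r = 0.93). Those closest to hspb1 were si:dkey-148h10.6, strip2 and bc2 (r = 0.87, 0.81 and 0.80). For hspb3 they were znrf1, dynll2b and sat2b (r = 0.88, 0.87 and 0.87). For hspb7 they were zgc:165653, rnf207b and ryr1a (r = 0.88, 0.87 and 0.86).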

How the data were processed

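White muscle RNA of 12 libraries was sequenced as single-end reads of 50 nt. The authors aligned them to GRCz10 with TopHat2 2.0.5, removed secondary alignments with SAMtools 0.1.18 and counted reads per gene with HTSeq 0.5.3p9; the deposited counts are neither normalized nor filtered. Deposited columns of the authors' DESeq fold changes and p-values were not used, and 0 sample columns were left unused. Groups and replicate numbers follow the sample titles.

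Each pair of groups was fitted on its 6 libraries, and the interaction over 12, with edgeR 4.0.16 (quasi-likelihood test, TMM, a minimum of 10 counts in 3 or more libraries, Benjamini-Hochberg, threshold 0.05, two-sided) in R 4.3.3, tested first on simulated data. CPM values use TMM factors over 12 libraries (0.772 to 1.39), and correlations use log2 CPM with a prior count of 2. Exact tests of 3 against 3 libraries cannot go below p = 0.1 and were not run. No pair of replicates agreed within sampling noise; p-values measure the spread between libraries. The alternatives were DESeq2 1.42.0, its size factors, no filter, 12 libraries in one fit, a replicate block, unadjusted p, each library left out, and, chosen after seeing the data, library totals in place of TMM.

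Members and gene lists were chosen with earlier results of these data known. All members are named, with every library's CPM for those averaging at least 100 counts. Of other genes nr3c1, list genes past the threshold and the 3 genes most alike to a member are named. The genes bag3, hsf1, hsp70l, hsp70.1, hsp70.2 and hsp70.3 were named after their values were seen. All 12 members matched a RefSeq gene, in some cases under another symbol, and the match was used only for names and overlaps. Intervals on reads cover counting error only.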

Additional observations from a re-analysis of the deposited data

How the results depend on the processing

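Over 614 values of members under the alternatives, 581 kept their direction and their side of the threshold, 5 lost a call, 5 gained one and 23 changed sign, none of these last a called value. The calls lost were those of hspb6 given above and its call in non-exercised fish with a replicate block (log2 fold change -4.68, adjusted p = 0.105). Same-numbered samples did not deviate together (r of -0.12 to 0.17), so the numbers do not pair the samples. With the replicate block 4 genes passed for exercise in wild-type fish, 0 between the non-exercised genotypes (0 members) and 223 between the exercised genotypes.

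Of members, DESeq2 called 1 for exercise in Gr mutants and 2 between the exercised genotypes, as did library totals and no filter there (2 each); unadjusted p gave 1 for exercise in wild-type fish, 2 for exercise in Gr mutants and 5 between the exercised genotypes. Leaving out 1 library gave 0 to 1 members between the exercised genotypes, 0 to 1 between the non-exercised genotypes and 0 to 1 for exercise in Gr mutants. Of all genes, DESeq2 called 374 (exercise, wild-type), 84 (exercise, Gr mutants), 691 (genotype, non-exercised), 923 (genotype, exercised) and 28 (interaction). Unadjusted p gave 2028, 1537, 2589, 2746 and 1347 in that order. No filter gave 142, 4 and 126 in the first 3, the fit over 12 libraries 6, 184 and 267 in the second to the fourth, and library totals 5 in the second. Leaving out 1 library gave 7 to 32, 0 to 58, 0 to 544 and 6 to 508 in the 4 comparisons.

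Signs changed for cryabb between the exercised genotypes with DESeq2 (0.0089), its size factors (0.0093) and 12 libraries in one fit (0.017). They changed with library totals for cryabb in exercised against non-exercised Gr mutants (-0.14) and in the interaction (-0.015) and for hspb9 between the non-exercised genotypes (-0.051), and there with the replicate block for hspb8 (-0.012), hspb9 (-0.75) and hspb11 (-0.087). With a library left out cryabb ranged over -0.26 to 0.20 between the exercised genotypes, -0.29 to 0.097 for exercise in wild-type fish, -0.073 to 0.33 for exercise in Gr mutants and -0.0045 to 0.46 in the interaction. Between the non-exercised genotypes hspb8 ranged over -0.36 to 0.64, hspb9 over -1.52 to 0.77 and hspb11 over -0.56 to 0.55. Other changes were in hspb8 for exercise in Gr mutants (-0.66 to 0.28), hspb3 between the exercised genotypes (-0.051 to 0.52) and hspb7 in the interaction (-1.14 to 0.098). The cause was not tested. Depth limits cryaba, HSPB11 and hspb15, which hold under 30 reads in every library.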
